A study of Homo sapiens with 6 samples.

Results

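The replication-dependent histone genes are 72 protein-coding genes whose symbols begin with H1- (H1-1 to H1-6), H2AC, H2BC, H3C or H4C, together with members of the same older HIST names. They were looked up among the 60658 identifiers with an FPKM value (fragments scaled for transcript length and library size) in 6 prostate cancer libraries, by symbol and not by level. Of the 72 genes, 49 reached 1 FPKM in at least 1 library and are called measured, and 23 did not, of which 14 were listed at 0 in all 6 libraries. The same limit left 17436 of all identifiers.

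The 6 libraries came from 2 lineages of human prostate carcinoma lines, with 1 library per line. CTXR is a cabazitaxel-resistant line made from DTXR and kept in 5 nM cabazitaxel, and DTXR is a docetaxel-resistant line made from DU145 and kept in 5 nM docetaxel. CabR is a cabazitaxel-resistant line made from TaxR and kept in 5 nM cabazitaxel, and TaxR is a docetaxel-resistant line made from C4-2B and kept in 5 nM docetaxel. DU145, a prostate carcinoma line that lacks the androgen receptor, and C4-2B, a line of the LNCaP family that has it, are the parental lines, for which the labels name no drug selection, and no line received a further treatment before RNA was taken. The word old stands in the title of the TaxR sample without explanation. Each subline is a selected population, and whether it is 1 clone is not given. A difference between 2 libraries has no replicate check, so each is given as a size, and a gene is called higher or lower where its log2 ratio of (FPKM + 1) reaches 1 in size, a 2-fold change on that scale.

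The core histones H2A, H2B, H3 and H4 form the protein spool around which DNA is wound, and the H1 linker histones bind where DNA enters and leaves it. Replication-dependent copies of these genes lie in clusters and are transcribed mainly in S phase, when new DNA must be packed. Their mRNAs normally end in a short stem-loop held by the stem-loop binding protein SLBP, in place of a poly(A) tail, and are destroyed when DNA synthesis stops, while a number of these genes also give polyadenylated transcripts, often in cells that have left the cycle. Both drugs are taxanes, which freeze microtubules and stall dividing cells in mitosis.

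The 72 genes comprised 6 of class H1, 17 of H2A, 19 of H2B, 15 of H3 and 15 of H4. In GRCh38 coordinates from GENCODE release 29, 55 of them lay on chromosome 6, with 34 in a first block at chr6:25726132-26285638, 5 in a second at chr6:27125897-27147515 and 16 in the third at chr6:27807444-27893843. On chromosome 1, 11 genes lay in the HIST2 cluster at chr1:149782689-149887916 and 3 in the HIST3 cluster at chr1:228424845-228460470. The last 3 stood alone, namely H3-7 on chromosome 1, H4C16 on chromosome 12 and H2BC12L on chromosome 21. Measured genes numbered 3 of class H1, 13 of H2A, 14 of H2B, 7 of H3 and 12 of H4. Just inside the limit stood H2BC6 at 1.0 FPKM, H3C4 at 1.03 FPKM and H4C2 at 1.06 FPKM in their highest library. Just outside it stood H2BC8 at 0.925 FPKM, H3C8 at 0.824 FPKM and H2AC12 at 0.663 FPKM. H3C4 overlaps a gene without a symbol on the same strand, so the reads of that pair may be mixed.

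The stem-loops are shown first, because this 3′ element sets the class apart from other mRNAs. A match to the stem-loop consensus of 16 bases, a stem of 6 pairs with a loop of 4 bases, was found in a GENCODE 29 transcript of 31 of the 72 genes, 25 of them measured. In 44 of the 72 genes every listed transcript had a length that was a multiple of 3, so most of these models hold coding length alone and could not show the element. The DNA letters below run 5′ to 3′ on the gene's strand, with the stem-loop in capitals and 5 bases on each side.
H2AC6, chr6:26124664-26124689 (+): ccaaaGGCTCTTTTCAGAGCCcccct
H2BC21, chr1:149886183-149886208 (-): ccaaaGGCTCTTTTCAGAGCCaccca
H3C10, chr6:27810511-27810536 (+): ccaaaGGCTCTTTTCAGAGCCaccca
H2AC25, chr1:228457364-228457389 (-): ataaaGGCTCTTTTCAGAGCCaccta
H2BC4, chr6:26123467-26123492 (-): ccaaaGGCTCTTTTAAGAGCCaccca
H2BC5, chr6:26158582-26158607 (+): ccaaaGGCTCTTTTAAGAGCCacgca
H4C8, chr6:26285126-26285151 (-): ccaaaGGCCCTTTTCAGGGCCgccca
H4C15, chr1:149860764-149860789 (-): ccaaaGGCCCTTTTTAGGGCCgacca
H2AC11, chr6:27133510-27133535 (+): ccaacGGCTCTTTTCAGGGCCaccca

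The 31 elements used 5 different core sequences. The first form above, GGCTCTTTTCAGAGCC, was found in 17 genes of H2A, H2B and H3. The form with an A in the loop, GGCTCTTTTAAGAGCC, was found in 5 genes of H2B and H3. All 8 H4 genes with an element carried a stem with more G and C, as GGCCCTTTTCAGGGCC in 5 genes and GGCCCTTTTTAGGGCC in 3. The element of H2AC11, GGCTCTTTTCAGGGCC, occurred in 1 gene.

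Some gene models went past the stem-loop. In 22 of the 72 genes a listed transcript ran 100 bases or more beyond the element, and 13 genes, all of them measured, had a spliced transcript. Together 26 genes had a longer or spliced model and 46 did not. Of the 26, 21 were measured and 11 reached 10 FPKM in some library. Of the 46, 28 were measured and 6 reached 10 FPKM. The median of the highest FPKM over the measured genes was 10.4 FPKM in the first set and 5.18 FPKM in the second. The labels describe stranded mRNA libraries, and how mRNA was selected is not given in the sources used here. FPKM of these genes may therefore cover tailed transcripts, stem-loop transcripts or both in unknown shares, and its part in the results was not tested.

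Promoters are shown because neighbouring histone genes are often transcribed away from a shared stretch of DNA. Of the 72 genes, 12 pairs started within 1000 bases of each other on opposite strands, with 219 to 357 bases between starts, and 8 pairs had both members measured. The stretch between H2BC4, read leftward, and H2AC6, read rightward, is printed on the plus strand from RefSeq, build GRCh38.p14. Capitals mark the letters CCAAT or its reverse ATTGG, the letters TATAAA or TTTATA, and the octamer ATTTGCAT or its reverse ATGCAAAT.
H2BC4/H2AC6, chr6:26123927-26124144 (+): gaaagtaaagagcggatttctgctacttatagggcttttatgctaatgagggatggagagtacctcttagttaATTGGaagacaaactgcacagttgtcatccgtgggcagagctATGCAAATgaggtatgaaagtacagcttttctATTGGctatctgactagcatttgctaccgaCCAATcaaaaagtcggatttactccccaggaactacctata
In these 218 bases stood 1 octamer and 3 copies of CCAAT on one strand or the other. Upstream bases follow for the 2 genes with the highest FPKM in any library, H1-2 and H2BC12, and for H2BC21. The 150 bases before each RefSeq start are printed on the gene's own strand with the same capitals.
H1-2, chr6:26056471-26056620 (-): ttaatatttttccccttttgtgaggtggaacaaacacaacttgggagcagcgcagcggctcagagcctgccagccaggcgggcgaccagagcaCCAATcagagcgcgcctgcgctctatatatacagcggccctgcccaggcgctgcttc
H2BC12, chr6:27146859-27147008 (-): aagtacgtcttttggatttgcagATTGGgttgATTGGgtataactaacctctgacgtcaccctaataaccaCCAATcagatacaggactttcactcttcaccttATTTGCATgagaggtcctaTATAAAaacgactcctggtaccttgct
H2BC21, chr1:149886683-149886832 (-): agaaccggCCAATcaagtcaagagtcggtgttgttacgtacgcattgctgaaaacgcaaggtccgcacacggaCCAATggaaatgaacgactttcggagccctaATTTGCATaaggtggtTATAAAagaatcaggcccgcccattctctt

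RefSeq promoter windows of 300 bases, 250 before to 50 after the start, were matched for 66 of the 72 genes. None of the 3 motifs contains another, and both strands were searched. CCAAT was present in 56 of the 66 windows (84.8%), against 34.6% of 35116 windows over all genes. The H4 class was unlike the others, with CCAAT in 3 of 13 windows (23.1%), while all windows of H1 (6), H2A (16), H2B (18) and H3 (13) held it. TATAAA was present in 44 windows (66.7%), against 11.5% over all genes. The octamer, the letters bound by the factor POU2F1, was present in 26 windows (39.4%), against 1.77% over all genes. It was found in 14 of 18 windows of H2B, in 11 of 16 of H2A and in 1 of 13 of H3, and in none of the 6 of H1 or the 13 of H4. Of measured genes with a matched window, 10 of 18 with the octamer and 15 of 27 without it were lower in DTXR than in DU145. The share over all measured genes was 5.1%. The median log2 ratio for DTXR over DU145 was -1.19 with the octamer and -1.28 without it. With CCAAT 22 of 36 measured genes were lower in DTXR, and without it 3 of 9, with medians of -1.31 and -0.94. This difference was not tested, and every matched window without CCAAT was of class H4.

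The libraries are described once before the results. The 6 C4-2B-side marker genes summed to 1.55 to 2.57 FPKM in the DU145 lineage and to 2230 to 4652 FPKM in the C4-2B lineage. The 8 DU145-side marker genes summed to 2225 to 2440 FPKM in the DU145 lineage, and to 3.27 FPKM in CabR, 26.4 FPKM in TaxR and 0.808 FPKM in C4-2B. All 8 were higher in TaxR than in C4-2B by the size rule. Taking out an estimated DU145-side share of 1.38% from TaxR left 3 histone genes lower and 7 higher in TaxR than in C4-2B, as many as with it. Mitochondrially encoded genes took 17.9% to 40.7% of total FPKM. Read depth is not known from FPKM, so no counting interval can be given.

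In the DU145 lineage histone mRNA was lower in both resistant lines. FPKM summed over the 72 genes came to 411 in CTXR, 208 in DTXR and 993 in DU145, and in the other lineage to 626 in CabR, 887 in TaxR and 871 in C4-2B. DTXR therefore had the lowest sum of the 6 libraries and DU145 the highest. The log2 ratios of (sum + 1) were -1.27 for CTXR over DU145, -2.25 for DTXR over DU145, -0.48 for CabR over C4-2B and 0.03 for TaxR over C4-2B. Of 49 measured genes 17 (34.7%) were lower and none was higher in CTXR than in DU145, where 5.47% of all measured genes were lower and 7.45% were higher. In DTXR 25 (51.0%) were lower than in DU145 and 1 was higher, against 5.1% and 5.37% of all measured genes. The median log2 ratio of the 49 genes was -0.72 in CTXR and -1.03 in DTXR, each over DU145, and that of all measured genes was 0.0 in both. Of all calls in CTXR 42.3% were on the low side, and 52.3% when libraries were scaled without mitochondrially encoded genes. The counts depend on the pseudocount added to FPKM. With 5 in place of 1 the lower genes numbered 4 in CTXR and 13 in DTXR. With 0.1 the lower genes numbered 22 in CTXR and 33 in DTXR, and the higher genes 4 in CTXR and 5 in DTXR. These 2 comparisons share the DU145 library. A gene that reached 1 FPKM only in DU145 had to be lower in its sublines, so the counts describe these libraries and are not a test.

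**Figure D1:**
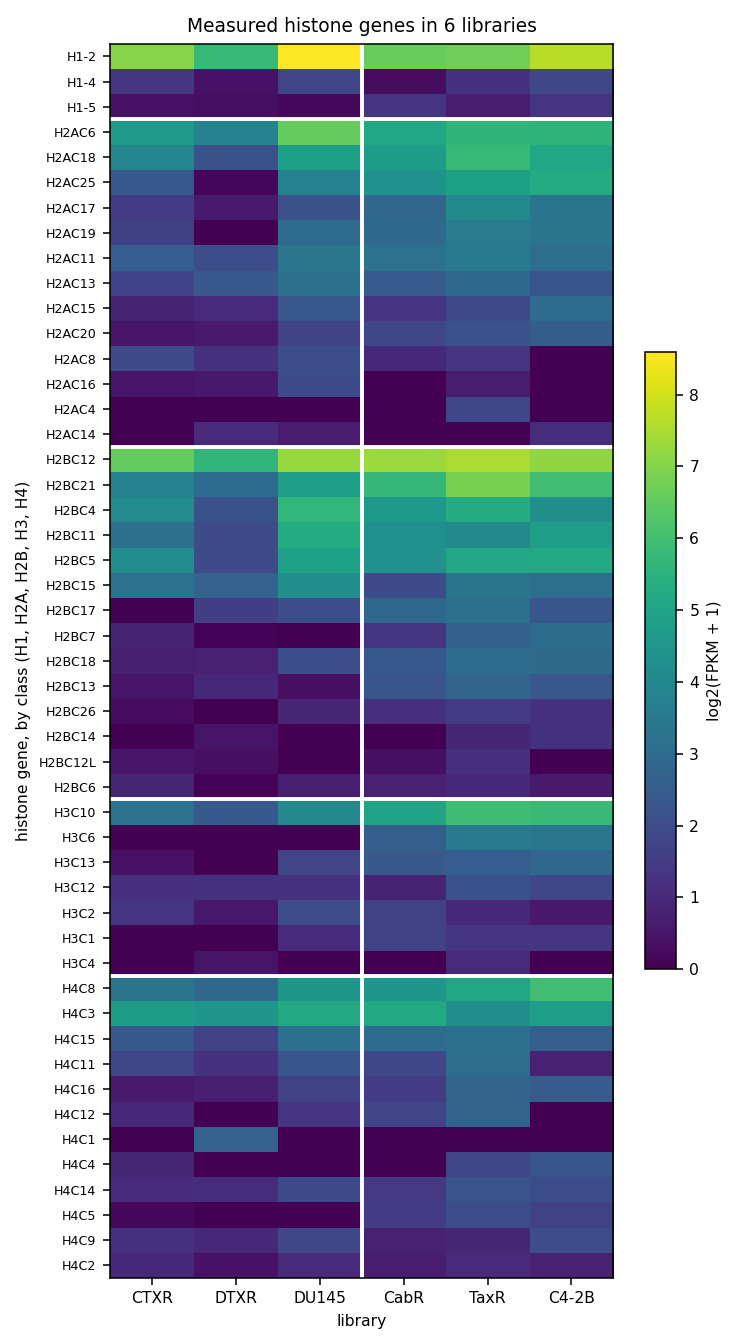
Heat map of log2(FPKM + 1) for the 49 measured histone genes (rows, by class and then by highest level) in the 6 libraries (columns). The DTXR column is the darkest for most abundant genes, and H1-2 in DU145 is the brightest cell at 384 FPKM.

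H1-2, a linker histone gene (ENSG00000187837, chr6:26055787-26056428), had the highest FPKM of the measured replication-dependent genes in any library, reached in DU145. It had 130 FPKM in CTXR, 55.0 FPKM in DTXR and 384 FPKM in DU145, and 96.0 FPKM in CabR, 106 FPKM in TaxR and 202 FPKM in C4-2B. All 4 resistant libraries thus lay below their parent, with log2 ratios of -1.55 in CTXR, -2.78 in DTXR, -1.06 in CabR and -0.93 in TaxR, the last short of the size rule. H1-2 made up 11.9% to 38.7% of the summed histone FPKM of a library. Without it the sums were 280 FPKM in CTXR, 153 FPKM in DTXR, 608 FPKM in DU145, 530 FPKM in CabR, 781 FPKM in TaxR and 669 FPKM in C4-2B, so the order of the DU145 lineage did not rest on this gene.

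The other measured H1 genes were at low levels. H1-4 reached at most 2.55 FPKM. H1-5, the only measured H1 gene of the third block, had 0.322 FPKM in CTXR, 0.272 FPKM in DTXR, 0.148 FPKM in DU145, 1.43 FPKM in CabR, 0.598 FPKM in TaxR and 1.43 FPKM in C4-2B. It was one of the few members that were not highest in DU145 within that lineage. Among 42 measured genes with 3 different values in the DU145 lineage, 34 were highest in DU145, 27 were lowest in DTXR, and 26 ran from DTXR at the low end through CTXR to DU145 at the top.

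H2A genes followed the same order where they were abundant. H2AC6, which starts on the stretch shared with H2BC4, had 24.2 FPKM in CTXR, 13.1 FPKM in DTXR and 92.9 FPKM in DU145, and 34.9 FPKM in CabR, 48.4 FPKM in TaxR and 47.3 FPKM in C4-2B. Its log2 ratio to DU145 was -1.90 in CTXR and -2.73 in DTXR, while TaxR stood level with C4-2B at 0.03. H2AC25, of the HIST3 cluster, had 4.14 FPKM in CTXR, 0.105 FPKM in DTXR and 12.8 FPKM in DU145, and 19.9 FPKM in CabR, 28.4 FPKM in TaxR and 37.7 FPKM in C4-2B. In DTXR it was all but missing, with a log2 ratio to DU145 of -3.64.

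H2AC18 and H2AC19 are near-identical copies in the HIST2 cluster, and the authors' software had to divide their reads, so each value is uncertain. H2AC18 had 13.9 FPKM in CTXR, 3.41 FPKM in DTXR and 27.9 FPKM in DU145, and 26.1 FPKM in CabR, 52.5 FPKM in TaxR and 33.3 FPKM in C4-2B. H2AC19 had 2.10 FPKM in CTXR, was listed at 0 in DTXR and had 7.06 FPKM in DU145, beside 6.64 FPKM in CabR, 11.3 FPKM in TaxR and 8.78 FPKM in C4-2B. Both were lowest in DTXR and highest in TaxR.

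H2AC11, the only measured H2A gene of the second block, had 4.96 FPKM in CTXR, 3.12 FPKM in DTXR and 9.34 FPKM in DU145, and 8.45 FPKM in CabR, 10.4 FPKM in TaxR and 7.61 FPKM in C4-2B. H2AC20 had 0.413 FPKM in CTXR, 0.548 FPKM in DTXR and 2.40 FPKM in DU145, and 2.54 FPKM in CabR, 3.51 FPKM in TaxR and 4.83 FPKM in C4-2B. Both were lower in the 2 resistant DU145 sublines than in DU145, H2AC11 past the size rule in DTXR alone at -1.33.

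H2AC15 lies within the span of H2BC15 on the other strand, and whether strand was used in counting is not given, so the reads of the pair may be mixed. H2AC15 had 0.787 FPKM in CTXR, 1.04 FPKM in DTXR and 4.01 FPKM in DU145, and 1.48 FPKM in CabR, 2.81 FPKM in TaxR and 6.98 FPKM in C4-2B. It was the only measured histone gene past the size rule, on the low side, in all 4 resistant libraries, with log2 ratios of -1.49 in CTXR, -1.30 in DTXR, -1.69 in CabR and -1.07 in TaxR. H2BC15 had 8.52 FPKM in CTXR, 5.48 FPKM in DTXR and 18.4 FPKM in DU145, and 3.02 FPKM in CabR, 9.07 FPKM in TaxR and 7.58 FPKM in C4-2B. H2AC16, also inside that span and on the same strand, had 0.395 FPKM in CTXR, 0.518 FPKM in DTXR and 2.86 FPKM in DU145, with 0.560 FPKM in TaxR and 0 listed in CabR and C4-2B.

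H2BC12, an H2B gene (ENSG00000197903, chr6:27146418-27146798), came second by highest FPKM in any library, and it was above H1-2 in CabR and TaxR. It had 93.3 FPKM in CTXR, 49.3 FPKM in DTXR and 154 FPKM in DU145, and 157 FPKM in CabR, 181 FPKM in TaxR and 142 FPKM in C4-2B. It was lower in DTXR than in DU145 by -1.63 on the log2 scale and did not pass the size rule in the other 3 resistant lines. H1-2 and H2BC12 together gave 32.3% to 54.5% of the summed histone FPKM.

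H2BC4 had 16.7 FPKM in CTXR, 3.36 FPKM in DTXR and 50.9 FPKM in DU145, and 22.8 FPKM in CabR, 39.2 FPKM in TaxR and 18.2 FPKM in C4-2B. Its log2 ratio to the parent was -1.55 in CTXR, -3.57 in DTXR, 0.31 in CabR and 1.07 in TaxR. H2BC4 and H2AC6 thus both lay below DU145 in its sublines, whereas in TaxR H2BC4 was above C4-2B and H2AC6 was level with it. H2BC5, whose span overlaps a gene without a symbol on the other strand and the pseudogene LARP1P1 on the same strand, had 17.6 FPKM in CTXR, 2.95 FPKM in DTXR and 28.9 FPKM in DU145, and 19.4 FPKM in CabR, 34.9 FPKM in TaxR and 36.2 FPKM in C4-2B. H2BC11 had 7.88 FPKM in CTXR, 2.93 FPKM in DTXR and 38.9 FPKM in DU145, and 18.8 FPKM in CabR, 15.3 FPKM in TaxR and 27 FPKM in C4-2B. DTXR was the lowest library for all 3 of these genes.

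H2BC21, in the HIST2 cluster, was the H2B gene with the widest range of FPKM in the C4-2B lineage. It had 12.8 FPKM in CTXR, 7.01 FPKM in DTXR and 26.6 FPKM in DU145, and 52.3 FPKM in CabR, 112 FPKM in TaxR and 61.1 FPKM in C4-2B. The CTXR ratio of -1.0 fell just short of the size rule, and the DTXR ratio was -1.79. H2BC18, whose span overlaps FCGR1A on the other strand and a gene without a symbol on the same strand, had 0.632 FPKM in CTXR, 0.740 FPKM in DTXR and 3.12 FPKM in DU145, and 4.20 FPKM in CabR, 6.93 FPKM in TaxR and 6.90 FPKM in C4-2B. H2BC26, the H2B partner of H2AC25 in the HIST3 cluster, had 0.218 FPKM in CTXR, was listed at 0 in DTXR and had 0.902 FPKM in DU145, with 1.26 FPKM in CabR, 1.79 FPKM in TaxR and 1.35 FPKM in C4-2B. Both members of that pair were lower in CTXR and DTXR than in DU145, in H2BC26 without passing the size rule.

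**Figure D2:**
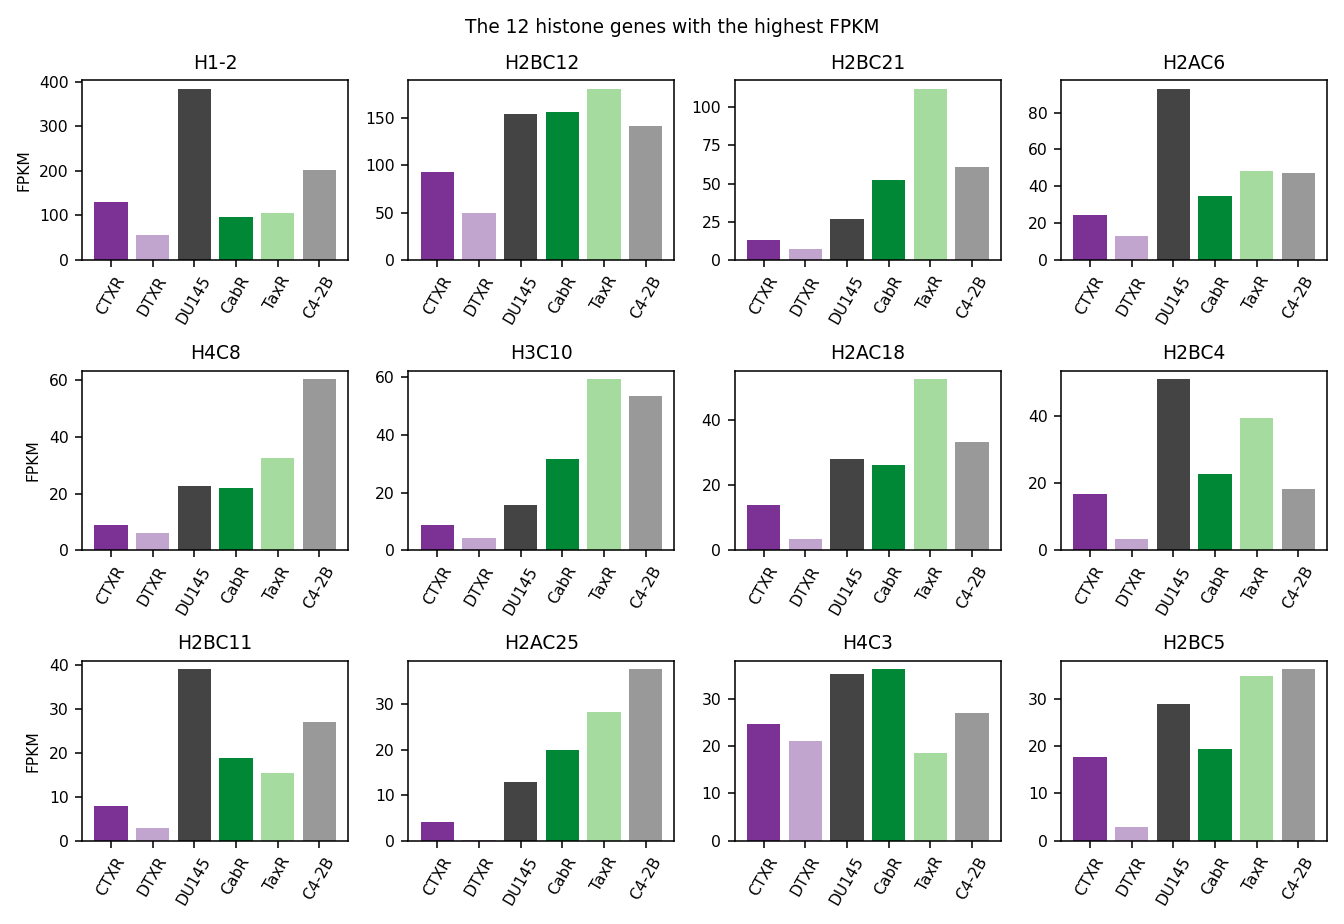
FPKM of the 12 histone genes with the highest levels, 1 panel per gene with its own axis from 0, 1 bar per library and no error bars because each line has 1 library. In the panel of H1-2 the DU145 bar stands at 384 FPKM and the DTXR bar at 55.0 FPKM, and DTXR is the lowest library in 11 of the 12 panels.

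H3 genes were led by H3C10 of the third block. It had 8.71 FPKM in CTXR, 4.38 FPKM in DTXR and 15.6 FPKM in DU145, and 31.7 FPKM in CabR, 59.4 FPKM in TaxR and 53.6 FPKM in C4-2B. H3C10 was lower in DTXR than in DU145 by -1.63 on the log2 scale, and every library of the DU145 lineage lay below every library of the C4-2B lineage. H3C13, the only measured H3 gene of the HIST2 cluster, had 0.342 FPKM in CTXR, was listed at 0 in DTXR and had 2.51 FPKM in DU145, with 4.25 FPKM in CabR, 4.88 FPKM in TaxR and 6.55 FPKM in C4-2B. H3C1 was listed at 0 in CTXR and DTXR and had 1.04 FPKM in DU145, with 2.23 FPKM in CabR, 1.53 FPKM in TaxR and 1.57 FPKM in C4-2B. H3C6 marked the lineages apart, with 0 FPKM listed in CTXR and DTXR and 0.0316 FPKM in DU145, against 5.03 FPKM in CabR, 10.7 FPKM in TaxR and 9.30 FPKM in C4-2B.

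H4 genes showed the smallest class difference in summed FPKM in the DU145 lineage. H4C3 had 24.7 FPKM in CTXR, 21.1 FPKM in DTXR and 35.4 FPKM in DU145, and 36.3 FPKM in CabR, 18.6 FPKM in TaxR and 27 FPKM in C4-2B, with no ratio to a parent past the size rule. H4C8 had 8.87 FPKM in CTXR, 6.23 FPKM in DTXR and 22.6 FPKM in DU145, and 21.8 FPKM in CabR, 32.4 FPKM in TaxR and 60.4 FPKM in C4-2B. Like H1-2, H4C8 lay below the parent in all 4 resistant lines, with log2 ratios of -1.25 in CTXR, -1.70 in DTXR, -1.43 in CabR and -0.88 in TaxR. H4C9, the only measured H4 gene of the second block, had 1.36 FPKM in CTXR, 0.931 FPKM in DTXR and 2.53 FPKM in DU145, and 0.740 FPKM in CabR, 0.870 FPKM in TaxR and 3.10 FPKM in C4-2B.

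H4C16, H4C11 and H4C12 had less FPKM in both DU145 sublines than in DU145 and differed among themselves in the C4-2B lineage. H4C16, a single gene on chromosome 12, had 0.535 FPKM in CTXR, 0.640 FPKM in DTXR and 2.14 FPKM in DU145, and 1.89 FPKM in CabR, 5.90 FPKM in TaxR and 4.58 FPKM in C4-2B. H4C11 had 2.52 FPKM in CTXR, 1.38 FPKM in DTXR and 3.75 FPKM in DU145, and 2.56 FPKM in CabR, 7.30 FPKM in TaxR and 0.745 FPKM in C4-2B. H4C12 had 0.926 FPKM in CTXR, was listed at 0 in DTXR and had 1.42 FPKM in DU145, with 2.46 FPKM in CabR, 5.61 FPKM in TaxR and 0 listed in C4-2B. H4C11 and H4C12 were thus higher in both resistant C4-2B sublines than in C4-2B. The 1 histone gene called higher in DTXR than in DU145 was H4C1, listed at 5.53 FPKM in DTXR and at 0 in the other 5 libraries.

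By class, the summed FPKM of H1 was 133 in CTXR, 55.6 in DTXR and 387 in DU145, and that of H2A was 58.0 in CTXR, 29 in DTXR and 175 in DU145. H2B summed to 161 in CTXR, 75.6 in DTXR and 327 in DU145, and H3 to 12.5 in CTXR, 7.73 in DTXR and 24.3 in DU145. H4 summed to 46.2 in CTXR, 39.6 in DTXR and 79.3 in DU145. All 5 classes had the order DTXR, CTXR, DU145 from low to high. The log2 ratio of (sum + 1) for DTXR over DU145 ran from -2.78 in H1 through -2.55 in H2A, -2.10 in H2B and -1.53 in H3 to -0.98 in H4. This order rested in part on single genes. Without H2BC12 the H2B ratio was -2.66, beyond that of H2A. H1-2 gave 384 of the 387 FPKM of H1 in DU145, and H4C3 gave 21.1 of the 39.6 FPKM of H4 in DTXR. By count, 2 of 3 H1 genes, 9 of 13 H2A genes, 7 of 14 H2B genes, 4 of 7 H3 genes and 3 of 12 H4 genes were lower in DTXR than in DU145. In CTXR 1 of 3 H1 genes, 7 of 13 H2A genes, 5 of 14 H2B genes, 2 of 7 H3 genes and 2 of 12 H4 genes were lower. Of all measured genes 5.1% were lower in DTXR and 5.47% in CTXR.

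**Figure D3:**
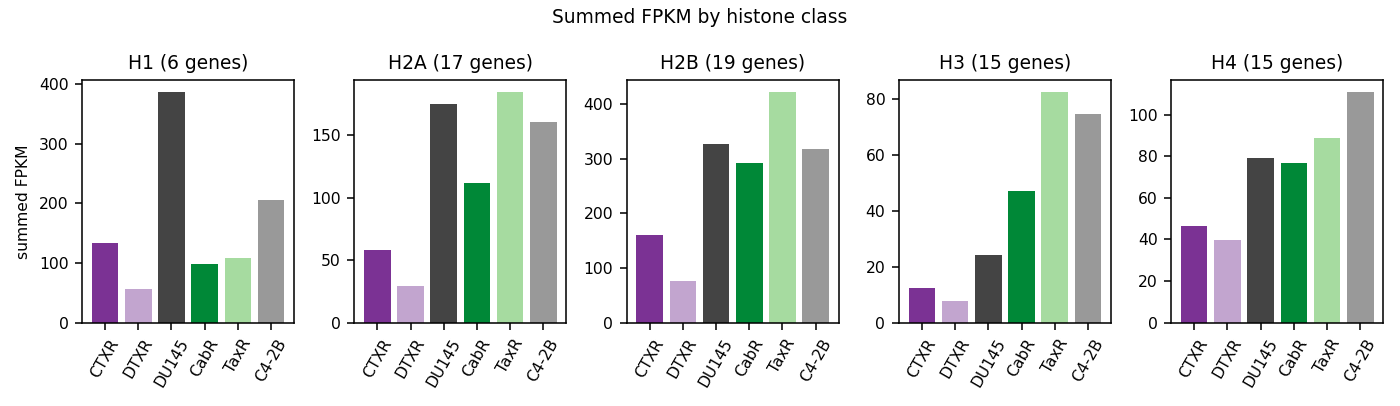
Summed FPKM of each histone class in the 6 libraries, 1 bar per library from 0 and with no error bars because each line has 1 library. In every class the DTXR bar is the lowest of the 6, as in H1 with 55.6 FPKM against 387 FPKM in DU145, and TaxR has the highest bar in H2A, H2B and H3.

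By cluster, the share of lower genes in DTXR was highest in the HIST2 genes of chromosome 1. In DTXR 7 of its 8 measured genes were lower than in DU145 with a median log2 ratio of -1.61, and in CTXR 4 of 8 were lower with a median of -1.13. In the first block of chromosome 6, 8 of 19 genes were lower in DTXR with a median of -0.72, and 5 of 19 in CTXR with a median of -0.10. The second block gave 3 of 4 in DTXR and 1 of 4 in CTXR, and the third block 6 of 14 in DTXR and 5 of 14 in CTXR. The shares over all measured genes were 5.1% lower in DTXR and 5.47% lower in CTXR. Sums showed each cluster lower in both lines, at 35.9 FPKM in CTXR, 15.4 FPKM in DTXR and 80.7 FPKM in DU145 for HIST2, and at 4.36 FPKM in CTXR, 0.105 FPKM in DTXR and 13.7 FPKM in DU145 for HIST3. The first block summed to 234 FPKM in CTXR, 111 FPKM in DTXR and 627 FPKM in DU145. H1-2 gave 55.0 FPKM of that sum in DTXR and 384 FPKM in DU145. The log2 ratio of (sum + 1) for DTXR over DU145 was -3.73 in HIST3, -2.48 in the first block and -2.32 in HIST2. It was -1.85 in the second block and -1.37 in the third, so clusters ranked otherwise by sum than by count. Differences between clusters were not tested.

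**Figure D4:**
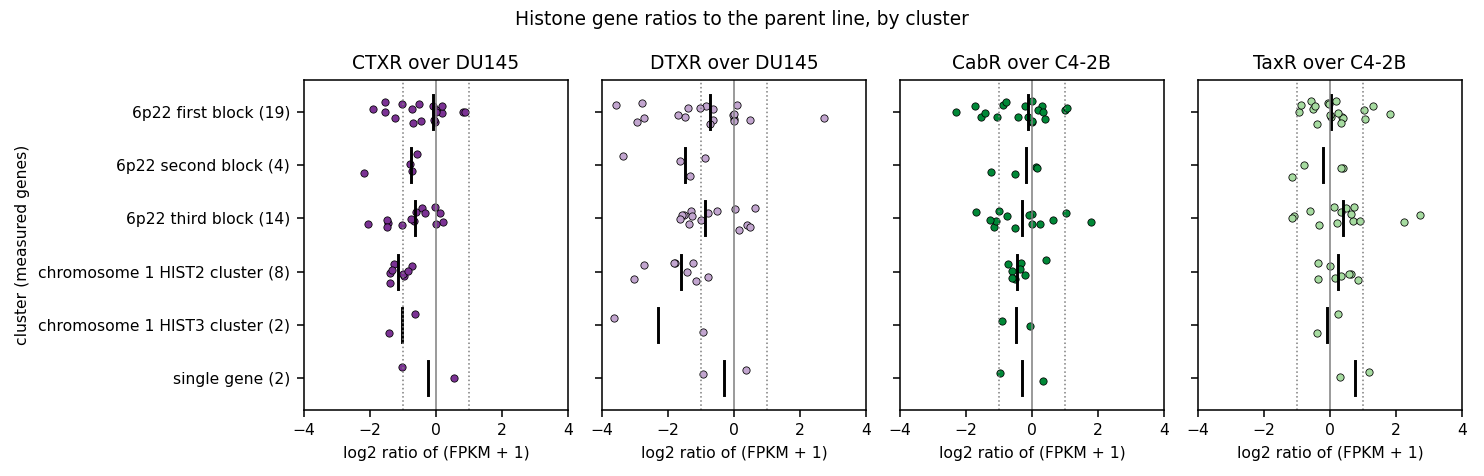
Log2 ratio of (FPKM + 1) to the parent line (horizontal) for each measured histone gene (point), by genome cluster (vertical), with the cluster median as a black bar, 0 as a solid line and the size rule of 1 as dotted lines. Medians lie left of 0 for each cluster in the CTXR and DTXR panels, down to -2.28 for the 2 HIST3 genes in DTXR, and lie on both sides of 0 in the TaxR panel.

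In CTXR most histone genes stood above DTXR, the line it came from, with 32 of 49 ratios above 0. Of the 49 genes 7 (14.3%) were higher and 3 were lower in CTXR than in DTXR, against 7.29% and 5.25% of all measured genes, with a median log2 ratio of 0.45. With a pseudocount of 5 there were 4 higher and 1 lower, and with 0.1 there were 19 higher and 6 lower. The 7 were H2BC5 at 2.23, H2AC25 at 2.22, H2BC4 at 2.02, H2AC18 at 1.76, H2AC19, H1-2 at 1.23 and H2BC11 at 1.18 on the log2 scale, with H2AC19 listed at 0 in DTXR. The 3 lower ones were H4C1, H2BC17 and H2AC14, each of them listed at 0 in CTXR. CTXR summed to 411 FPKM, between DTXR and DU145. This comparison shares its libraries with those above, so it is no further evidence of them.

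In the C4-2B lineage the counts of called genes leaned lower in CabR and higher in TaxR. The summed FPKM of TaxR was level with C4-2B, at a log2 ratio of 0.03, and H1-2 and H4C8 were below C4-2B in both lines. In CabR 11 genes (22.4%) were lower and 4 were higher than in C4-2B, against 6.2% and 2.67% of all measured genes, and the median log2 ratio was -0.34. In TaxR 3 genes (6.12%) were lower and 7 (14.3%) were higher than in C4-2B, against 5.64% and 2.52% of all measured genes, and the median was 0.24. With a pseudocount of 5, 2 genes were lower and 0 higher in CabR, and 0 were lower and 2 higher in TaxR. The 11 lower in CabR included H1-2, H4C8, H2BC15 and H2AC15 above, and H4C4, listed at 0 in CabR and at 3.91 FPKM in C4-2B. Of the 7 higher in TaxR, H2BC4 was the only one above 10 FPKM. The single gene H2BC12L, whose span overlaps HSF2BP, had 1.26 FPKM in TaxR and 0.273 FPKM in CabR and was listed at 0 in C4-2B, beside 0.448 FPKM in CTXR, 0.287 FPKM in DTXR and 0 listed in DU145. H2AC8 had 1.0 FPKM in CabR and 1.45 FPKM in TaxR and was listed at 0 in C4-2B, and it had 2.9 FPKM in CTXR, 1.31 FPKM in DTXR and 3.18 FPKM in DU145. H2AC14 was listed at 0 in CTXR, CabR and TaxR, with 1.07 FPKM in DTXR, 0.587 FPKM in DU145 and 1.20 FPKM in C4-2B. The other genes called higher in TaxR reached at most 7.30 FPKM there, so these calls rest on genes of low level.

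CabR was set against TaxR, the line it came from. Of the 49 genes 10 (20.4%) were lower and none was higher in CabR than in TaxR, against 1.84% and 1.75% of all measured genes, and 42 of the 49 ratios were below 0 with a median of -0.57. With a pseudocount of 5 the count was 1 lower, and with 0.1 it was 18 lower and 2 higher. The 10 included H2BC21 at -1.08, H2AC17, which overlaps H3C12 on the same strand, at -1.22, H2BC15 at -1.33, H4C16 at -1.26 and H4C11 at -1.22 on the log2 scale. H1-2 was nearly level, at -0.14. Within the lineage CabR was lowest in 29 and TaxR highest in 28 of 45 genes with 3 different values. H1 genes summed to 97.7 FPKM in CabR, 108 FPKM in TaxR and 206 FPKM in C4-2B, and H4 genes to 76.9 FPKM in CabR, 89.0 FPKM in TaxR and 111 FPKM in C4-2B. H2A summed to 112 FPKM in CabR, 185 FPKM in TaxR and 161 FPKM in C4-2B, and H2B to 292 FPKM in CabR, 423 FPKM in TaxR and 318 FPKM in C4-2B. H3 summed to 46.9 FPKM in CabR, 82.5 FPKM in TaxR and 74.6 FPKM in C4-2B. In H1 and H4 both resistant lines were below C4-2B, and in H2A, H2B and H3 TaxR was above it.

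The parental lines differed as well. In DU145 13 genes (26.5%) were lower and 7 (14.3%) were higher than in C4-2B, against 19.5% and 17.3% of all measured genes, so the shares of histone genes were near those of all genes. Of all calls between these lines 53.0% were on the low side, and 40.2% when libraries were scaled without mitochondrially encoded genes. H2BC21, H3C10, H4C8, H2AC25, H3C6 and H3C13 were among the 13, and H2BC4, H2BC15 and H2AC16 among the 7. With a pseudocount of 5 there were 6 lower and 1 higher. H1-2 had 384 FPKM in DU145 and 202 FPKM in C4-2B, a log2 ratio of 0.93.

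Docetaxel and then cabazitaxel resistance was selected in 2 parental lines, and the lineages are the only repeat of each state. The resistant lines were kept in drug, and the labels name no drug selection for the parental lines. Resistance and drug exposure therefore cannot be told apart in these contrasts. In limma fitted to all 6 libraries with lineage and resistance state as terms, none of the 49 genes had an adjusted p under 0.05 for either contrast, nor did any other gene, 0.0% of 17436 for the docetaxel-resistant and 0.0% for the cabazitaxel-resistant lines. At an unadjusted p under 0.05 there were 7 of 49 for the docetaxel-resistant lines and 8 of 49 for the cabazitaxel-resistant lines, all on the low side, against 4.43% and 4.79% of all measured genes. Both contrasts share the parental libraries, and each cabazitaxel-resistant line was made from the docetaxel-resistant one, so these counts are not separate evidence. H1-2 had a limma log2 difference of -1.85 with an SE of 0.43 for docetaxel resistance (adjusted p = 0.93) and -1.31 with an SE of 0.43 for cabazitaxel resistance (adjusted p = 0.86). H4C8 had limma differences of -1.29 and -1.34, each with an SE of 0.32, for docetaxel and cabazitaxel resistance, and H2AC15 had -1.18 and -1.59 with the same SE (adjusted p = 0.93 and 0.86 in both genes). No histone difference over both lineages therefore passed the correction. As no other gene passed it either, this result does not tell the histone genes from others and does not show that levels were equal.

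Histone genes outside the replication-dependent set were mostly level with their parent. Of 11 replication-independent histone genes, whose mRNAs mostly carry poly(A) tails, none was past the size rule in CTXR against DU145 or in CabR against C4-2B. Of all measured genes 5.47% were lower and 7.45% higher in CTXR, and 6.2% lower and 2.67% higher in CabR. MACROH2A2, a variant H2A with a large added domain, was higher in TaxR than in C4-2B, with 8.52 FPKM in CabR, 9.44 FPKM in TaxR and 3.81 FPKM in C4-2B, and had 31.8 FPKM in CTXR, 21.2 FPKM in DTXR and 26.5 FPKM in DU145. The list medians were -0.07 in CTXR, -0.10 in DTXR, 0.08 in CabR and -0.01 in TaxR, against -0.72, -1.03, -0.34 and 0.24 for the replication-dependent genes in the same comparisons.

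Genes that process histone mRNA were mostly level, with 1 exception in 13, higher in DTXR than in DU145, as were 5.37% of all measured genes. ERI1, an exonuclease that binds the histone stem-loop and takes part in histone mRNA decay, had 11.8 FPKM in CTXR, 40.9 FPKM in DTXR and 11.3 FPKM in DU145, and 12 FPKM in CabR, 12.1 FPKM in TaxR and 9.76 FPKM in C4-2B. DTXR, the library with the lowest histone sum, was the only one above 12.1 FPKM, at a log2 ratio of 1.77 to DU145, and the part of ERI1 in the histone levels was not tested. SLBP, the stem-loop binding protein, had 51.4 FPKM in CTXR, 35.4 FPKM in DTXR and 37.9 FPKM in DU145, and 65.9 FPKM in CabR, 60.7 FPKM in TaxR and 44.1 FPKM in C4-2B. LSM11, a subunit of the U7 particle that cuts histone pre-mRNA, had 2.08 FPKM in CTXR, 2.30 FPKM in DTXR and 2.10 FPKM in DU145, and 2.26 FPKM in CabR, 2.35 FPKM in TaxR and 1.49 FPKM in C4-2B. Neither passed the size rule against a parent.

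Regulators of histone transcription and histone chaperones did not pass the size rule against a parent in any resistant line, 0 of 9 and 0 of 11. Of all measured genes 5.1% to 6.2% were lower and 2.52% to 7.45% higher in these comparisons. A count of 0 in lists this short does not set them apart. NPAT, the coactivator of histone genes at their nuclear bodies, had 5.45 FPKM in CTXR, 6.47 FPKM in DTXR and 6.48 FPKM in DU145, and 6.21 FPKM in CabR, 5.83 FPKM in TaxR and 5.93 FPKM in C4-2B. CASP8AP2, also called FLASH, which joins these bodies and the 3′ processing of histone mRNA, had 8.95 FPKM in CTXR, 8.75 FPKM in DTXR and 7.38 FPKM in DU145, and 2.52 FPKM in CabR, 2.60 FPKM in TaxR and 2.5 FPKM in C4-2B. CASP8AP2 thus separated the lineages and not the resistant lines from their parents.

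S phase genes were set beside the histone genes because both are tied to DNA synthesis. Of 20 such genes 1 was lower in CTXR and 1 higher in DTXR than in DU145, against 5.47% and 5.37% of all measured genes. None passed the size rule in CabR or TaxR against C4-2B. These counts do not set the list apart from all genes. The medians were -0.38 in CTXR, 0.08 in DTXR, 0.21 in CabR and -0.01 in TaxR. MKI67, a proliferation marker, had 19.5 FPKM in CTXR, 38.6 FPKM in DTXR and 40.8 FPKM in DU145, and 20.2 FPKM in CabR, 13.7 FPKM in TaxR and 19.3 FPKM in C4-2B. TYMS, which makes thymidylate for DNA, had 115 FPKM in CTXR, 141 FPKM in DTXR and 67.7 FPKM in DU145, and 116 FPKM in CabR, 98.0 FPKM in TaxR and 98.4 FPKM in C4-2B. The histone sum was lowest in DTXR, where the S phase list was level with DU145. The cell cycle distribution of these cultures is not known from the files, and fewer cells in S phase and less histone mRNA per cell cannot be told apart in bulk RNA.

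**Figure D5:**
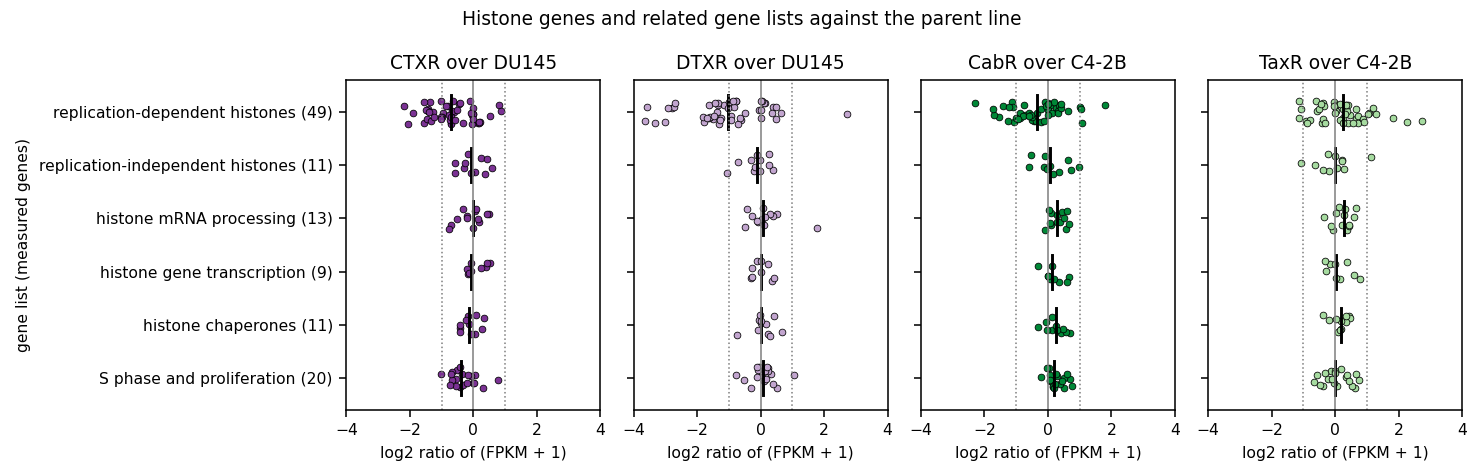
Log2 ratio of (FPKM + 1) to the parent line (horizontal) for each measured gene (point) of 6 gene lists (vertical), with the list median as a black bar and the size rule of 1 as dotted lines. The replication-dependent histones have medians of -0.72 in CTXR and -1.03 in DTXR, the other lists have medians between -0.38 and 0.28 in the 4 panels, and the point of the processing list far to the right in DTXR is ERI1 at 1.77.

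Other protein-coding genes that lie between the outermost histone genes of chromosome 6 numbered 20, of which 14 were measured. In CTXR none was lower and 1, BTN3A3, was higher than in DU145, with a median log2 ratio of 0.07, against 5.47% and 7.45% of all measured genes. In DTXR 1, a gene without a symbol, was lower and 2, TRIM38 and BTN3A3, were higher than in DU145, with a median of 0.27. There 5.1% of all measured genes were lower and 5.37% were higher. The gene without a symbol overlaps the histone gene H3C4 on the same strand, so the reads of that pair may be mixed. In CabR 1, BTN2A2, was lower than in C4-2B and none was higher, with a median of -0.60, against 6.2% and 2.67% of all measured genes. In TaxR none passed the size rule against C4-2B, with a median of -0.01, where 5.64% of all measured genes were lower and 2.52% higher. Against TaxR, 2 of the 14 were lower in CabR, namely BTN3A2 and BTN3A3, and none was higher, with a median of -0.51. In that comparison 1.84% of all measured genes were lower, and the histone genes of all chromosomes had a median of -0.57. On chromosome 6 the histone medians were -0.55 in the first block, -0.15 in the second and -0.76 in the third. On chromosome 1 they were -0.65 in HIST2 and -0.4 in HIST3. Histone medians below 0 were thus not confined to chromosome 6. The chromosome 1 clusters held no such gene wholly within them.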

How the data were processed

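Per the file headers, the authors deposited FPKM in 1 table per library. The submitters' processing notes list HISAT, StringTie, Cuffnorm and build GRCh38. Tool versions, the annotation, the use of strand and the joint scaling of libraries are not given there. An exact 0 can be a failed estimate, and the software had to split reads between near-identical or overlapping genes. The labels' protocols give TRIzol extraction and a directional kit for the stranded mRNA libraries.

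Identifiers were matched to symbols with a gene table, GENCODE release 29 (57047 of 60658 found) and, for 5 histone genes, an older name in RefSeq. Ratios were taken on the log2(FPKM + 1) scale without rescaling, and a log2 ratio of at least 1 was called a difference. limma (3.58.1, R 4.3.3) was fitted to all 17436 measured genes with lineage and resistance state as terms, an intensity trend, two-sided tests and Benjamini-Hochberg adjustment. It was tested on simulated data with larger changes and less noise than the histone genes had. Python 3.11.15, numpy 2.4.6, pandas 2.3.3 and matplotlib 3.10.9 were used.

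The histone genes and all lists were chosen with earlier results of these data known. Values in all 6 libraries are given for 30 genes, namely the top 12 by highest FPKM, those past the size rule in both sublines of a lineage and those that are the only measured gene of their class in a cluster, and for members of the lists of replication-independent histones, mRNA processing, transcription, chaperones and S phase past the size rule against a parent, with SLBP, NPAT, CASP8AP2 and LSM11. Other genes were named after their values were seen. A gene of the replication-independent list that the rule names is not reported here. Alternatives were other pseudocounts, filters and scalings, removal of the DU145-side share from TaxR, other limma designs and leaving out each library.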

Additional observations from a re-analysis of the deposited data

Results flagged for a closer look

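H4C10P, a pseudogene of the H4 class that the rule for protein-coding genes leaves out, was listed at 6.09 FPKM in TaxR and at 0 in the other 5 libraries. It was looked at because signal appeared outside the measured set. Of 15 histone pseudogenes looked up, 4 reached 1 FPKM in some library, and H2BC20P had 8.66 FPKM in CTXR, 5.86 FPKM in DTXR and 11 FPKM in DU145, with 5.88 FPKM in CabR, 7.91 FPKM in TaxR and 9.24 FPKM in C4-2B. Pseudogenes can share reads with their coding relatives, and this was not tested.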

How the results depend on the processing

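The labels give no replicate numbers, so no replicate could be paired, and libraries were matched by lineage, which is a term of the limma fit. With a pseudocount of 0.1, 22 histone genes were lower and 4 higher in CTXR than in DU145, and 33 were lower and 5 higher in DTXR. At that setting 6 were lower and 19 higher in CTXR than in DTXR, and 18 were lower and 2 higher in CabR than in TaxR. With a pseudocount of 5, 4 were lower in CTXR and 13 in DTXR than in DU145, 1 was lower and 4 were higher in CTXR than in DTXR, 2 were lower and 0 higher in CabR and 0 lower and 2 higher in TaxR than in C4-2B, 1 was lower in CabR than in TaxR, and 6 were lower and 1 higher in DU145 than in C4-2B. The pseudocount sets how far genes near 1 FPKM can move. With a filter on a mean of 1 FPKM, which leaves 38 histone genes, 0 were higher in DTXR than in DU145, 1 was lower in CTXR than in DTXR and 4 were higher in TaxR than in C4-2B. With libraries scaled to the same total FPKM, 5 were lower in TaxR than in C4-2B. That scaling put the median log2 ratio of all genes at -0.12 in TaxR over C4-2B and at -0.15 in DU145 over C4-2B, which was -0.02 as deposited. Scaling without mitochondrial genes put the last at 0.17, where the histone median was 0.0. Single-gene, class and cluster values were each checked under several alternatives, 1804 checks in all. Of these 1685 stayed on the same side of the size rule, 57 came to pass it and 62 no longer did, 50 of them with a pseudocount of 5. No value that had passed the rule at first changed sign, and sign changes in other values were not counted. The limma alternatives that kept all 6 libraries gave 0 histone genes with an adjusted p under 0.05. The full fit had also called no gene, so these counts do not show stability. Fits with a library left out keep 1 library in a resistance state, so their counts are not given. That each line has 1 library limits every comparison, and depth is unknown.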
